A study of Mus musculus with 24 samples.

Results

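The 10 genes described here are transcripts of T cells and natural killer (NK) cells: Cd3g, Cd3e, Cd3d, Lck, Ms4a4b, Nkg7, Klrd1, Gzma, Gzmb and Prf1. They were found in an array study of ozone-exposed mouse lung by their symbols in the platform annotation. Of the 22690 probe sets, 11 carried the symbol of 1 of these genes alone, and they covered 9 of the 10 genes, among 12393 genes measured in all. Lck, the kinase that starts signalling from the T cell receptor, had no such probe set and was not analysed here. Ms4a4b and Prf1 had more than 1 probe set, and the one with the higher mean signal stands for the gene.

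The samples are left lung lobes of 24 male mice, 1 array per mouse and 3 mice in each of 8 groups. One strain was C3H/HeOuJ (OuJ), Tlr4 sufficient, and the other C3H/HeJ (HeJ), Tlr4 dominant negative. Tlr4 is the receptor for bacterial lipopolysaccharide, and the series asks how lung transcripts respond to ozone where it is deficient. In each strain 1 group had air alone and the others had 6, 24 or 48 h of ozone, a gas that oxidises the lining of the airways. Neither the mice's age nor the ozone concentration is stated in the sources used here. OuJ and HeJ are separate inbred strains, so a strain difference need not be one of Tlr4 alone.

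T cells recognise antigen through a receptor whose signal is carried into the cell by the CD3 chains gamma, delta and epsilon, the products of Cd3g, Cd3d and Cd3e. NK cells lack that receptor and read their targets through receptors such as CD94, the product of Klrd1, which pairs with NKG2 proteins. Both NK cells and cytotoxic T cells kill by releasing granules: perforin (Prf1) opens the membrane of the target, granzymes (Gzma, Gzmb) are proteases that enter through it, and Nkg7 encodes a granule membrane protein needed for efficient release. Ms4a4b encodes a membrane protein of mouse T cells. In lung, these lymphocytes lie in the vessels, the interstitium and the airway wall, so a lobe holds a mixture of their transcripts with those of far more abundant epithelium and endothelium.

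Levels are signals on a linear scale, and changes are differences of log2(signal + 16) with their standard error (SE), which understate the change of genes with low signals. P-values are from limma, two-sided and adjusted over all genes of a comparison, and a gene was called at an adjusted p under 0.05. In bulk lung, fewer cells of a type and less RNA per cell cannot be told apart. The labels carry sample codes of 3 series: code series 3 holds air and 6 h of both strains, series 10 holds 24 and 48 h of OuJ, and series 13 holds 24 and 48 h of HeJ. Each 24 or 48 h change from air therefore cannot be told apart from the code series, whereas 6 h against air and 48 h against 24 h lie within 1 series. The labels do not say what the codes stand for.

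Facts of the whole data set bear on these values as follows. Array medians ran from 200.05 to 229.3, and arrays of a group correlated across probe sets with a Pearson r of 0.966 to 0.979. The summed signal of the 12 lung epithelial markers lay between 145064 and 202809 in every group, and that of the 11 endothelial markers between 34643.8 and 49956. The endothelial sum was lower at 48 h than in air. It was 34643.8 to 38357.8 against 40505.2 to 46004.6 in OuJ, and 39337.8 to 40383.3 against 45708.2 to 49956 in HeJ. The ratio of the 5' to the 3' probe set of Gapdh, a measure of RNA quality, was 0.781 to 1.03 in OuJ arrays and 0.497 to 0.944 in HeJ arrays. Tlr4 itself gave 160.6 to 291.3 in OuJ and 182.8 to 299.4 in HeJ. The HeJ defect is known to lie in the protein, so these signals do not check the strain labels.

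Upstream sequences are shown for 4 of the members called lower in both strains. Cd3g and Cd3d are neighbours, each called at 24 h in OuJ and at 48 h in HeJ, and Nkg7 and Gzma are the granule genes called. Ms4a4b, also called lower in both strains, is not printed. The sequences are the 250 bases before the RefSeq start in build GRCm38.p6, in lower case. They are written 5' to 3' along the strand of the gene, with matches to 4 searched motifs in capitals. Cd3g (chr9:44980432-44980681, minus strand) and Cd3d (chr9:44981536-44981785, plus strand) are divergent neighbours whose starts lie 1355 bp apart. Nkg7 lies at chr7:43436888-43437137 (plus strand) and Gzma at chr13:113100982-113101231 (minus strand).
Cd3g: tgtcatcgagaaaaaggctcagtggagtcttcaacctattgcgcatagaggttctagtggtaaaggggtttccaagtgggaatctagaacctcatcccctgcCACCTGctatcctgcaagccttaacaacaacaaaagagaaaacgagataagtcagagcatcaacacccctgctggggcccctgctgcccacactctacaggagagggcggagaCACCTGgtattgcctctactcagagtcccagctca
Cd3d: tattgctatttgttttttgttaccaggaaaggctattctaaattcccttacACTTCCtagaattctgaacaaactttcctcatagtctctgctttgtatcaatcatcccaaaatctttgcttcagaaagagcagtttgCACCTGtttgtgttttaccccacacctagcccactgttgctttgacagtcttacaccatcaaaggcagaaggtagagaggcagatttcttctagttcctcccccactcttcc
Nkg7: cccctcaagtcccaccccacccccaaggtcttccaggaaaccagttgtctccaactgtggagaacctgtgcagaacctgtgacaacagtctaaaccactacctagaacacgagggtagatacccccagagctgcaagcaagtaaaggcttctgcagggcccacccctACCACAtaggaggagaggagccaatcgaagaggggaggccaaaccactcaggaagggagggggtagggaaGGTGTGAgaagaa
Gzma: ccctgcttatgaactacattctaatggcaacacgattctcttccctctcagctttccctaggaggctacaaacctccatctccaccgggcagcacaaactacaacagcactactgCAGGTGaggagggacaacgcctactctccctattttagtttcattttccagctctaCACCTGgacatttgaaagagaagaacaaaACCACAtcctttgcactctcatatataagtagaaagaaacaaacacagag

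Motifs were searched on both strands of these windows, of which 8 of the 9 measured members had one (not Klrd1). The RUNX letters TGTGGT occurred in 4 of the 8 members (Gzma, Gzmb, Nkg7 and Prf1) and in 14.05% of all 32851 promoters. The ETS letters GGAAGT occurred in 4 members (Cd3d, Cd3e, Ms4a4b and Prf1) and in 19.74% of all promoters. The E-box letters CAGGTG occurred in 4 members (Cd3d, Cd3g, Gzma and Prf1) and in 17.22% of all, with a pair of matches each in Cd3g and Gzma. The T-box letters GGTGTGA, which on the given strand start 13 bases before the start of Nkg7, occurred in 1 member and in 3.333% of all. A glucocorticoid response element occurred in 0 of the 8 members and in 0.3866% of all. None of these motifs overlaps another in the 4 printed windows, and a match is a description of letters, not evidence of binding.

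In both strains Cd3g, Cd3d, Ms4a4b, Nkg7, Klrd1 and Gzma had their highest means in air and their lowest at 24 or 48 h of ozone. All 9 measured members had lower mean log2 levels at 24 h and at 48 h than in air in each strain. Of the 9, 7 passed the filter on low signals, and Gzmb and Prf1 did not. Cd3d, Ms4a4b and Klrd1 passed it through air and 6 h arrays alone and Cd3g mostly so (6 of its 7 arrays). The counts of members called at 24 and 48 h against air are therefore also given without any filter.

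**Figure D1:**
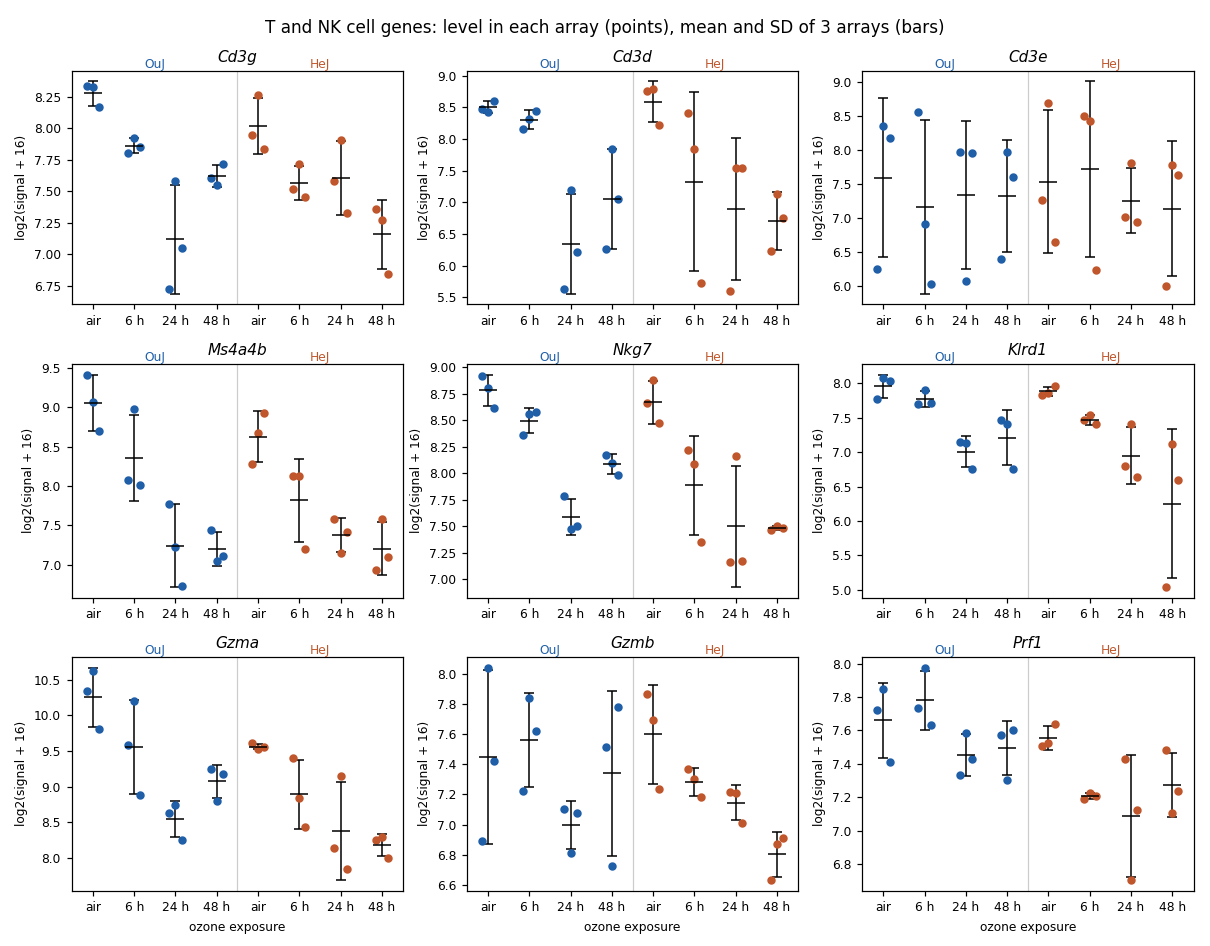
Level of each of the 9 measured genes, as log2(signal + 16), in every array. The x axis gives the exposure in OuJ (blue, left) and HeJ (orange, right), points are arrays, and bars are the mean and SD of 3 arrays. For Ms4a4b, Nkg7 and Gzma the air arrays of each strain lie above all its 24 and 48 h arrays, whereas the Cd3e arrays scatter in every group.

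Of the CD3 chains, Cd3g (probe set 1419178_at) had the tightest values. In OuJ its signal was 307.6, 305.6 and 271.5 in air, 207.9, 227.5 and 215.4 at 6 h, 90, 176.1 and 116.2 at 24 h, and 179.4, 171.1 and 194.9 at 48 h. In HeJ it was 231.4, 292.4 and 212.3 in air, 167.9, 194.5 and 160 at 6 h, 176, 224 and 144.3 at 24 h, and 148, 138.5 and 98.9 at 48 h. No OuJ ozone array reached an OuJ air array, whereas in HeJ the 24 h arrays overlapped air through replicate 2. Cd3g fell by 1.16 ± 0.20 at 24 h in OuJ (adjusted p = 0.000992) and fell by 0.86 ± 0.20 at 48 h in HeJ (adjusted p = 0.0077). Its change was -0.65 ± 0.20 at 48 h in OuJ (adjusted p = 0.051) and -0.41 ± 0.20 at 24 h in HeJ (adjusted p = 0.244).

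Cd3d (1422828_at), the delta chain, was 282 to 425.6 in air and scattered after ozone. In OuJ the signal was 339.3, 328.5 and 373.3 in air, 268.5, 302.2 and 333.1 at 6 h, 33.5, 129.8 and 57.9 at 24 h, and 60.3, 213.9 and 116.9 at 48 h. In HeJ it was 417.3, 425.6 and 282 in air, 322.5, 214.3 and 36.9 at 6 h, 32.2, 169.2 and 170.4 at 24 h, and 58.8, 124.2 and 91.8 at 48 h. Every 24 and 48 h array lay below every air array of its strain, and at 6 h HeJ replicate 3 stood far below the others. Cd3d fell by 2.16 ± 0.55 at 24 h in OuJ (adjusted p = 0.0187) and fell by 1.89 ± 0.55 at 48 h in HeJ (adjusted p = 0.0261). The OuJ call was lost on leaving out any of 5 single arrays (adjusted p up to 0.0876), and the HeJ call on leaving out any of 4 (up to 0.105) or the 4 arrays with a code suffix (0.0639). Its change was -1.45 ± 0.55 at 48 h in OuJ (adjusted p = 0.111) and -1.70 ± 0.55 at 24 h in HeJ (adjusted p = 0.062).

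Cd3e (1422105_at), the epsilon chain, could not be resolved with these arrays. Its signals ran from 48 to 396, and even air arrays of a strain spanned 60.3 to 311.3 in OuJ and 83.7 to 396 in HeJ. The residual SD of its log2 level was 1.05, at the 99.9th percentile of all 12393 genes measured. It was 0.78 for Cd3d and 0.23 for Cd3g, and its median over the 8008 genes tested was 0.18. The changes of Cd3e lay between -0.43 and 0.19, each within 1 SE (0.73) of 0.

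Ms4a4b (1423467_at) had the smallest adjusted p of the members in both OuJ comparisons at 24 and 48 h. Its signal in OuJ was 663.3, 522.3 and 398.3 in air, 253.9, 489.5 and 241.4 at 6 h, 203.4, 134.3 and 89.9 at 24 h, and 158.3, 115.9 and 122.4 at 48 h. In HeJ the signal was 296, 392.6 and 468.8 in air, 262.6, 263.1 and 131.5 at 6 h, 174.9, 126.2 and 154.5 at 24 h, and 105.9, 175.6 and 121.5 at 48 h. All HeJ ozone arrays lay below all HeJ air arrays, and in OuJ only replicate 2 at 6 h reached into the air range. The gene fell by 1.81 ± 0.30 at 24 h (adjusted p = 0.00053) and fell by 1.86 ± 0.30 at 48 h (adjusted p = 0.000363) in OuJ. In HeJ it fell by 1.25 ± 0.30 at 24 h (adjusted p = 0.0112), a call lost without air replicate 3 (adjusted p = 0.0624), and fell by 1.42 ± 0.30 at 48 h (adjusted p = 0.00298). Another Ms4a4b probe set, 1425325_at, stayed at or below 59.5 in all arrays, under the filter. Its means in OuJ were 43.7 ± 4.96 in air, 7.20 ± 2.01 at 24 h and 27.9 ± 19.0 at 48 h (SD, n = 3), lower than air as for the main probe set. In HeJ they were 26.7 ± 29.0, 25.2 ± 28.7 and 34.4 ± 4.93, without that order.

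Among the genes shared by NK and cytotoxic T cells, Nkg7 (1450753_at) was called in 3 of the 4 comparisons at 24 and 48 h. In OuJ its signal was 467.6, 432.1 and 377.6 in air, 312.7, 360.6 and 365.6 at 6 h, 204.3, 161.6 and 165.3 at 24 h, and 273, 257.4 and 237.4 at 48 h. In HeJ it was 388.7, 455.3 and 339.8 in air, 282.4, 256.1 and 147.6 at 6 h, 127.1, 270 and 128.6 at 24 h, and 161, 164.8 and 162.9 at 48 h. No ozone array of either strain, at any time, reached an air array of that strain. Nkg7 fell by 1.20 ± 0.22 at 24 h in OuJ (adjusted p = 0.00159), fell by 1.17 ± 0.22 at 24 h in HeJ (adjusted p = 0.00247) and fell by 1.19 ± 0.22 at 48 h in HeJ (adjusted p = 0.00119). At 48 h in OuJ its change was -0.70 ± 0.22 (adjusted p = 0.0553).

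Klrd1 (1460245_at), the CD94 chain of NK receptors, was 202 to 254.6 in air. The OuJ signals were 202, 254.6 and 246.1 in air, 192.3, 222.9 and 193.1 at 6 h, 125.2, 124.9 and 91.5 at 24 h, and 160.5, 154.8 and 92.1 at 48 h. The HeJ signals were 212.4, 215.7 and 233.5 in air, 160.4, 170.9 and 153.2 at 6 h, 95.4, 154.5 and 83.5 at 24 h, and 16.9, 123.2 and 80.3 at 48 h. Air arrays lay above all 24 and 48 h arrays of their strain, and replicate 1 at 48 h in HeJ was the lowest by far. Klrd1 fell by 1.63 ± 0.34 at 48 h in HeJ (adjusted p = 0.00305), and without that array the change was -1.03 ± 0.26 (adjusted p = 0.0149). The call was lost in a fit on the HeJ 48 h and air arrays alone (adjusted p = 0.0517). Its other changes were -0.95 ± 0.34 at 24 h in OuJ, -0.75 ± 0.34 at 48 h in OuJ and -0.93 ± 0.34 at 24 h in HeJ (adjusted p of 0.105, 0.201 and 0.102). Without that same array these passed at the same size, at an adjusted p of 0.0137, 0.0459 and 0.0148.

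Gzma (1417898_a_at), granzyme A, a tryptase-like protease of the granules, had signals in OuJ of 1277, 1561.6 and 879.7 in air, 753.5, 1158.6 and 454.2 at 6 h, 380.4, 414.3 and 289.9 at 24 h, and 590.6, 431.2 and 561.1 at 48 h. In HeJ they were 764.3, 722.1 and 735.7 in air, 658.9, 440.6 and 330.6 at 6 h, 265.8, 550.8 and 212.8 at 24 h, and 287.3, 298.7 and 241 at 48 h. The air arrays of each strain lay above all its 24 and 48 h arrays, and HeJ replicate 2 stood out as the highest of the HeJ 24 h arrays. Gzma fell in all 4 comparisons. It fell by 1.71 ± 0.30 at 24 h (adjusted p = 0.000988) and fell by 1.18 ± 0.30 at 48 h (adjusted p = 0.016) in OuJ, and fell by 1.19 ± 0.30 at 24 h (adjusted p = 0.0166) and fell by 1.38 ± 0.30 at 48 h (adjusted p = 0.00395) in HeJ. The 48 h call in OuJ was lost without any of 3 single arrays (adjusted p up to 0.0907), and the 24 h call in HeJ without any of 3 (up to 0.109).

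The other granule genes stayed under the filter and were not called in any comparison with air. Gzmb (1419060_at), granzyme B, a protease that starts apoptosis, had mean signals in OuJ of 168 ± 73.3 for air, 112 ± 13.8 for 24 h and 153 ± 58.0 for 48 h, and in HeJ of 181 ± 42.3, 126 ± 11.1 and 96.1 ± 11.3 (SD, n = 3). In the fit without a filter its change furthest from 0 was -0.79 ± 0.27, at 48 h in HeJ (adjusted p = 0.0846). Prf1 (1451862_a_at), perforin, had OuJ means of 188 ± 30.8 for air, 159 ± 15.4 for 24 h and 165 ± 19.8 for 48 h, and HeJ means of 172 ± 9.39, 123 ± 34.1 and 140 ± 20.9. Its change furthest from 0 was -0.47 ± 0.18, at 24 h in HeJ (adjusted p = 0.173). The other Prf1 probe set, 1450335_at, had higher means at 24 h than in air in both strains (146 ± 14.1 against 120 ± 28.2 in OuJ and 145 ± 15.7 against 111 ± 15.1 in HeJ), so the probe sets of this gene disagree in direction.

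Counted over the comparisons, 5 of the 7 members tested were lower at 24 h in OuJ (Cd3g, Cd3d, Ms4a4b, Nkg7 and Gzma), where 3.41% of the 8008 genes tested were called lower. At 48 h in OuJ 2 were lower (Ms4a4b and Gzma, against 4.21% of all genes), at 24 h in HeJ 3 (Ms4a4b, Nkg7 and Gzma, against 3.96%) and at 48 h in HeJ 6 (all but Cd3e, against 6.42%). There 0 members were called higher, beside 3.16%, 3.7%, 3.15% and 5.66% of all genes in the same order. Without a filter the calls fell on the same genes, 5, 2, 3 and 6 of all 9 measured members, where 1.65%, 2.5%, 2.15% and 3.59% of 12393 genes were called lower. The median change of the 9 was -1.16, -0.70, -0.93 and -1.19 in that order, beside medians over all genes of -0.03, -0.01, -0.02 and -0.04. Within a strain these comparisons use the same 3 air arrays. Arrays lay wholly below air for 6 of the 9 members at 24 h (12.6% of all genes) and at 48 h (13.4%) in OuJ, and for 7 (10.8%) and 8 (14%) in HeJ.

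**Figure D2:**
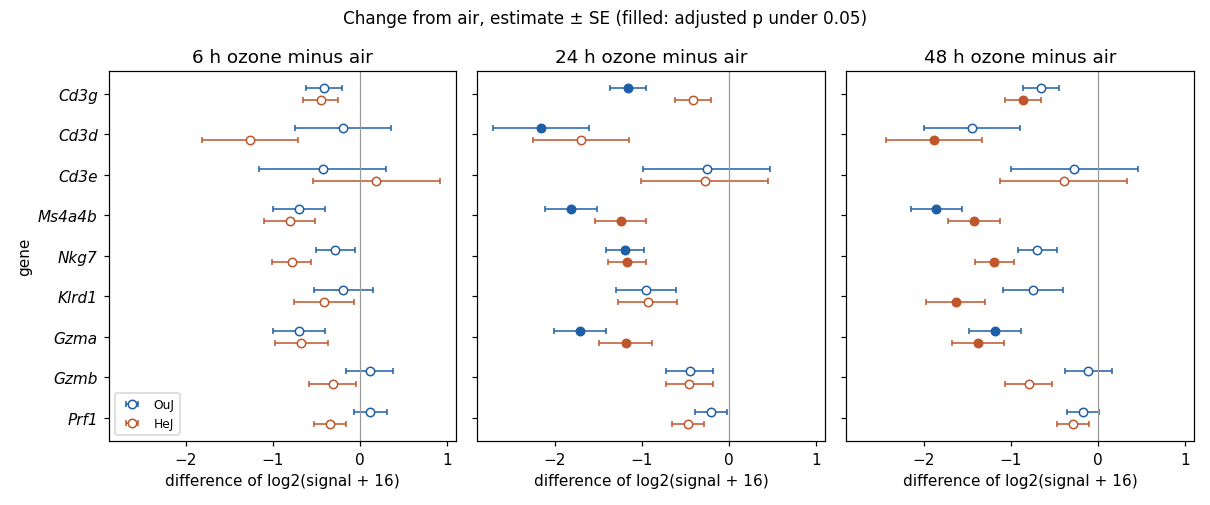
Change from air of each measured gene (difference of log2(signal + 16), estimate ± SE) at 6, 24 and 48 h in OuJ (blue) and HeJ (orange). Filled points are changes with a limma adjusted p under 0.05; Gzmb and Prf1 are from the fit without a filter. All 18 points at 24 h and all 18 at 48 h lie below 0, and no point is filled at 6 h.

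The HeJ 24 h values rest on particular arrays. In the labels 4 arrays carry a suffix on their code: air replicate 2, 6 h replicate 2, and 24 h replicates 1 and 3 of HeJ. Without them the HeJ 24 h group is replicate 2 alone, the highest HeJ 24 h array for Cd3g, Nkg7, Klrd1 and Gzma, and 0 members were called lower at 24 h in HeJ. The changes were then -1.45 for Ms4a4b (adjusted p = 0.213), -0.41 for Nkg7 (adjusted p = 0.586) and -0.43 for Gzma (adjusted p = 0.755), and over all genes 41 were called in place of 569. That fit assumes that the remaining array varies like those of the other groups. At 48 h in HeJ the same fit kept the calls of Cd3g, Ms4a4b, Nkg7, Gzma and Klrd1 and lost that of Cd3d.

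At 6 h no member was called in either strain, where 0.137% of genes in OuJ and 0.0375% in HeJ were called in either direction. At an unadjusted p under 0.05 there were 2 members in OuJ (Ms4a4b and Gzma) and 5 in HeJ (Cd3d, Cd3g, Ms4a4b, Nkg7 and Gzma) of 7, beside 10.5% and 9% of all genes tested. Averaged over both strains, the difference was -0.76 ± 0.21 for Ms4a4b (adjusted p = 0.0727) and for Nkg7 -0.53 ± 0.16 (adjusted p = 0.0973), again with 0 calls, where 1.17% of all genes were called. At an unadjusted p under 0.05 there were 4 members of 7, beside 13.3% of all genes. Without a filter the same members had an unadjusted p under 0.05 in OuJ, in HeJ and over both strains. In that fit 0 of the 9 were called, beside 0.0565%, 0% and 0.597% of 12393 genes in either direction. Leaving out HeJ 6 h replicate 1 gave 3 calls, leaving out OuJ 6 h replicate 2 gave 2, and leaving out HeJ 24 h replicate 2 gave 1, where 263, 197 and 126 of all genes were called in place of 94. In HeJ the 6 h arrays of 6 of the 9 measured members lay wholly below the air arrays (Cd3g, Gzma, Klrd1, Ms4a4b, Nkg7 and Prf1), as did 6.75% of all 12393 genes. In OuJ 2 of 9 did (Cd3g and Nkg7), beside 8.45% of all genes.

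From 24 to 48 h no member was called in either strain, a comparison within 1 code series. In OuJ the median difference of the 9 was 0.34, beside 0.02 over all genes, and 0.15% of genes tested were called in either direction. Arrays at 48 h lay wholly above those at 24 h for Gzma and Nkg7, as for 7.43% of all genes, with differences of 0.53 ± 0.30 (adjusted p = 0.703) and 0.50 ± 0.22 (adjusted p = 0.562), and Cd3g had 0.51 ± 0.20 (adjusted p = 0.502). In HeJ the median was -0.19, beside -0.02 over all genes, 5.46% of genes were called, and the differences of Klrd1 and Cd3g were -0.70 ± 0.34 (adjusted p = 0.248) and -0.45 ± 0.20 (adjusted p = 0.21). Without HeJ 48 h replicate 1 that of Klrd1 was -0.095 ± 0.26 (adjusted p = 0.876). Unadjusted p was under 0.05 for Cd3g and Nkg7 in OuJ, beside 7.98% of all genes, and for Cd3g in HeJ, beside 20.8%.

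The strain difference of the ozone changes, tested as an interaction, was called for 0 members at 6, 24 and 48 h, where 0.0125%, 0.0125% and 0% of all genes were called in either direction. The nearest was Cd3g at 24 h, whose change in HeJ was 0.75 ± 0.29 above that in OuJ (limma adjusted p = 0.54), the only member with an unadjusted p under 0.05 at any of the 3 times, beside 7.83% of all genes at 24 h. At 48 h Klrd1 had -0.89 ± 0.48 (adjusted p = 0.679) and Nkg7 -0.49 ± 0.31 (adjusted p = 0.743), HeJ minus OuJ, and without HeJ 48 h replicate 1 Klrd1 had -0.28 ± 0.34 (adjusted p = 0.873). The SEs of these differences ran from 0.29 for Cd3g to 1.04 for Cd3e. With 3 arrays per group and adjustment over all genes, the 0 calls do not show that the changes were alike in the strains.

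Averaged over the 4 exposures, HeJ was lower than OuJ for Gzma (-0.60 ± 0.15, adjusted p = 0.00647) and Nkg7 (-0.35 ± 0.11, adjusted p = 0.0276), 2 of 7 members where 7.88% of genes were called lower. This average takes in the 24 and 48 h groups, in which strain cannot be told apart from the code series. In the fit without a filter Prf1 was also lower (-0.31 ± 0.09, adjusted p = 0.0274), 3 of 9 members beside 4.95% of genes. In air alone, within 1 code series, no member was called, where 0.774% of genes were called in either direction. Gzma had -0.69 ± 0.30 (adjusted p = 0.292), all 3 HeJ air arrays lying below the OuJ air arrays, as for 7.78% of all genes, and Nkg7 -0.11 ± 0.22 (adjusted p = 0.875). Neither strain call held without the 4 arrays with a code suffix (Gzma -0.40, adjusted p = 0.112 and Nkg7 -0.24, adjusted p = 0.137), and that of Nkg7 was also lost without any of 4 single arrays (adjusted p up to 0.0536). The 5' to 3' ratios given above were lower in most HeJ arrays, and their part in the strain difference was not tested.

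Ordered by mean log2 level over the 8 groups, the air groups of both strains were the highest for Cd3g, Cd3d, Ms4a4b, Nkg7, Klrd1 and Gzma. The order of Gzma ran from HeJ 48 h (276 ± 30.6) through HeJ 24 h, OuJ 24 h, HeJ 6 h, OuJ 48 h, OuJ 6 h and HeJ air (741 ± 21.5) to OuJ air (1239 ± 342), and only the last step separated all arrays of neighbouring groups. For Nkg7 the order was the same, with the step from OuJ 48 h (256 ± 17.8) to OuJ 6 h (346 ± 29.2) the only one whose arrays did not overlap. All other neighbours in both orders overlapped, and for Cd3d, Ms4a4b, Cd3e, Gzmb and Prf1 every pair of neighbours did.

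The members' levels also varied together from array to array. The mean of the 7 tested members, each centred on its 24-array mean, was 0.40 to 0.99 in the air arrays, -0.71 to 0.57 at 6 h, -0.70 to 0.05 at 24 h and -1.08 to -0.01 at 48 h. Within the 6 h groups HeJ replicate 3 was lowest, and within the HeJ 24 h group replicate 2 was highest. Each member correlated with the mean standardized profile of the 7 at a Pearson r of 0.839 to 0.937 over 24 arrays, apart from Cd3e at 0.381. Each member is part of that mean, and the arrays share exposure groups, so these are descriptions.

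**Figure D3:**
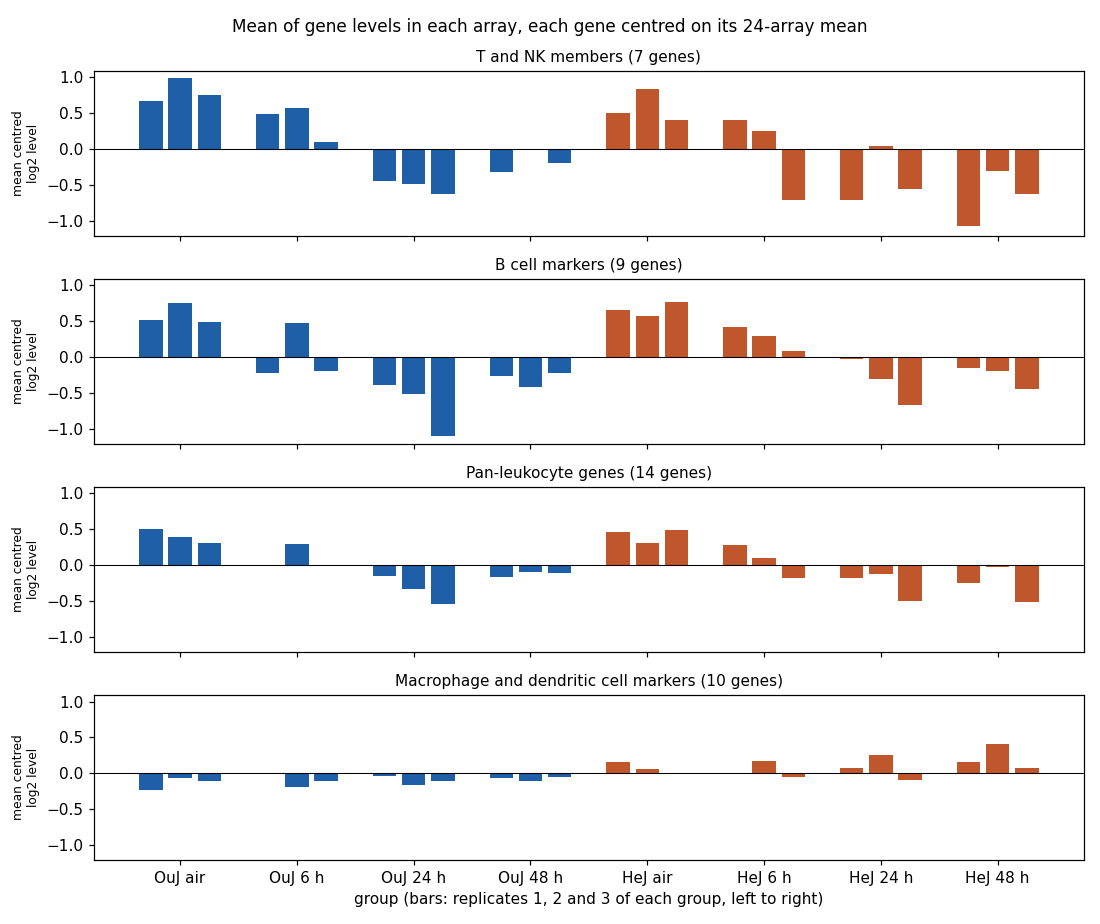
Mean level of 4 gene lists in each of the 24 arrays, each gene centred on its mean over arrays (log2 scale, bars are replicates 1 to 3 of each group in OuJ, blue, and HeJ, orange). T and NK members, B cell markers and pan-leukocyte genes are above 0 in all 6 air arrays; the macrophage and dendritic cell markers lie between -0.23 and 0.41 throughout.

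Of the genes outside the list, the 6 most like this profile were Evl (r = 0.945), Epha1 (0.921), Trbv1 (0.92), Coro1a (0.903), Rab31 (0.879) and Gask1b (0.876). Trbv1 is a variable segment of the T cell receptor beta chain, Coro1a is an actin-binding protein of leukocytes, and Evl regulates actin filaments. The signal of Trbv1 ran from 320.6 to 418.8 in the air arrays, from 180.4 to 313.1 at 6 h, from 108 to 283.9 at 24 h and from 99.2 to 217.9 at 48 h. These genes were chosen for their likeness over the same 24 arrays, so their values are a description, with no test.

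Other genes of T and NK cells were taken from lists that did not contain the members. Counts over their tested genes are given in the order OuJ 24 h, OuJ 48 h, HeJ 24 h and HeJ 48 h. Of the T cell receptor and coreceptor list, 14 genes were measured and only Thy1, a surface glycoprotein of mouse T cells that fibroblasts and endothelium also carry, passed the filter. Thy1 fell in all 4 comparisons, with changes of -0.43 ± 0.12, -0.50 ± 0.12, -0.55 ± 0.12 and -0.73 ± 0.12 (adjusted p of 0.0366, 0.0126, 0.00748 and 0.000457). The OuJ call at 24 h was lost without any of 4 single arrays, under quantile normalization, under median centring and without a filter (adjusted p up to 0.22). The OuJ call at 48 h was lost without air replicate 1 or 3. Without a filter 1, 2, 1 and 2 of the 14 were lower. These were Cd27 at 24 h in OuJ, Thy1 at 24 h in HeJ, and both genes at 48 h in each strain. The median of the 14 was -0.40, -0.29, -0.41 and -0.48.

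In the signalling list 2, 1, 1 and 1 of 6 tested genes were lower and 0 higher, and leaving out 1 array in turn gave 2, 0 to 1, 0 to 1 and 0 to 3. Without a filter 2, 2, 1 and 2 of the 14 measured were lower. Lat, an adaptor phosphorylated once the receptor is engaged, fell by 1.02 ± 0.20 at 24 h in OuJ (adjusted p = 0.00301) and fell by 0.78 ± 0.20 at 48 h in HeJ (adjusted p = 0.0136). Fyb, an adaptor linking the receptor to integrins, fell, with changes of -1.05 ± 0.22 and -0.90 ± 0.22 at 24 and 48 h in OuJ (adjusted p of 0.0051 and 0.0132). The 48 h calls were lost for Lat without HeJ 48 h replicate 2 or 3 and for Fyb without OuJ air replicate 1 or OuJ 48 h replicate 1.

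Of the NK receptor list 1, 0, 3 and 2 of 6 tested genes were lower. At 24 h in HeJ the 3 became 0 without the suffix arrays or without 24 h replicate 3, and 1 of 16 genes was lower in the fit without a filter. At 48 h in HeJ the 2 became 0 without 48 h replicate 3, and at 24 h in OuJ the 1 was Ncr1. Ncr1, an activating receptor found on NK cells, fell by 1.01 ± 0.24 at 24 h in OuJ (adjusted p = 0.01) and fell by 0.89 ± 0.24 at 48 h in HeJ (adjusted p = 0.0156). The Ncr1 signal was 171 to 309.5 in the air arrays, 98.8 to 148.7 at 24 h and 81.9 to 184.8 at 48 h, without overlap between air and 24 h. Strain by strain, 12.6% of all genes in OuJ and 10.8% in HeJ lay wholly below air at 24 h. Ncr1 passed the filter through OuJ air and 6 h arrays alone. Without a filter it was also called lower at 24 h in OuJ and at 48 h in HeJ. Its calls were lost without any of 3 single arrays in each strain (adjusted p up to 0.0632). In the cytotoxic granule and effector list 2, 2, 3 and 2 of 8 were lower and, at 48 h in HeJ, 1 was higher. Leaving out 1 array in turn, the lower counts ran from 2 to 3, 1 to 3, 1 to 3 and 0 to 3, with 0 without HeJ air replicate 1 or 3. Without a filter 3, 2, 2 and 4 of the 18 measured were lower and, at 48 h in HeJ, 1 was higher. Tnfsf10, the death ligand TRAIL, fell in all 4 comparisons (with changes of -1.19 ± 0.25, -1.25 ± 0.25, -1.14 ± 0.25 and -0.92 ± 0.25, adjusted p of 0.00444, 0.00323, 0.00631 and 0.0174). Ccl5, a chemokine that draws T cells, fell by 0.86 ± 0.19 at 24 h in OuJ (adjusted p = 0.00671), a call lost without OuJ 24 h replicate 3 (adjusted p = 0.0677). The 48 h call of Tnfsf10 in HeJ was lost without any of 3 single arrays (up to 0.0751). Ctsc, the protease that activates granzymes and is also made by myeloid cells, rose by 0.53 ± 0.13 at 48 h in HeJ (adjusted p = 0.00884), a call lost without the suffix arrays (adjusted p = 0.0572).

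The transcription factors did not share a direction: of 5 tested, 2, 2, 1 and 1 were lower and 1, 2, 2 and 1 higher. Ets1, a factor of lymphocytes and endothelium, fell, with changes of -0.62 ± 0.12 and -0.78 ± 0.12 at 24 and 48 h in OuJ (adjusted p of 0.00174 and 0.000196). Another Ets1 probe set passed the filter, and with all kept probe sets tested it had -0.65 and -0.45 there (adjusted p of 0.0948 and 0.263). Satb1, a chromatin organiser of T cells, fell, with changes of -1.13 ± 0.20 and -1.09 ± 0.20 at 24 and 48 h in HeJ (adjusted p of 0.0014 and 0.000953). It was also called lower at both times in OuJ, calls lost without a filter (changes of -0.67 and -0.65, adjusted p of 0.0729 and 0.0766). Nfil3, a factor needed for NK cell development, rose by 2.07 ± 0.52 at 48 h in OuJ (adjusted p = 0.0141) and by 2.44 ± 0.52 and 1.98 ± 0.52 at 24 and 48 h in HeJ (adjusted p of 0.00491 and 0.0143). Both 48 h calls of Nfil3 were lost without any of 3 single arrays (adjusted p up to 0.0928). Its mean signals in air were low, 55.6 ± 31.2 in OuJ and 34.6 ± 38.7 in HeJ (SD, n = 3), under the filter value of 218.3. After ozone they were 265 ± 52.0 at 48 h in OuJ, and 245 ± 152 and 154 ± 40.7 at 24 and 48 h in HeJ.

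Zbtb16, known for its part in innate-like T cells and made by other cell types too, rose by 1.97 ± 0.47 and 1.96 ± 0.47 at 24 and 48 h in OuJ (adjusted p of 0.0113 and 0.0104) and by 2.02 ± 0.47 at 24 h in HeJ (adjusted p = 0.00941). At 48 h in HeJ the difference was 0.17 ± 0.47 (adjusted p = 0.866). The HeJ 24 h call was lost without replicate 3, and the OuJ 24 h call without OuJ air replicate 1 (adjusted p = 0.0502). Its signals were 108 to 185 in the 6 air arrays and 145.7 to 181.8 in the 3 HeJ 48 h arrays. At 6 h they were 755.3, 335.7 and 901.2 in OuJ and 102.4, 615.1 and 963.7 in HeJ. At 24 h in HeJ the signals were 685.2, 412.9 and 857.3.

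Among genes of lymphocyte migration and survival 2, 1, 2 and 3 of 7 tested were lower, and leaving out 1 array in turn gave 1 to 2, 0 to 1, 1 to 2 and 1 to 3. Cxcr4, the receptor for Cxcl12, fell in all 4 comparisons (with changes of -0.80 ± 0.16, -0.69 ± 0.16, -1.21 ± 0.16 and -0.66 ± 0.16, adjusted p of 0.00241, 0.00743, 4.91e-05 and 0.00765). Il7r, the receptor chain for interleukin 7 that keeps naive T cells alive, fell by 0.60 ± 0.17 at 48 h in HeJ (adjusted p = 0.0229) and fell by 0.58 ± 0.17 at 24 h in OuJ (adjusted p = 0.0412). Calls of Il7r were lost without any of 4 single arrays at 48 h in HeJ and without any of 5 at 24 h in OuJ (adjusted p up to 0.174). The OuJ 24 h call of Il7r was also lost without a filter (adjusted p = 0.0683) and under median centring (adjusted p = 0.0555). The call of Cxcr4 at 48 h in OuJ was lost without OuJ 48 h replicate 3. Of the thymocyte list, 5 genes were measured and the 1 tested, Cd1d1, was not called (changes of -0.27 to 0.09 at 24 and 48 h).

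By their medians, B cell markers and pan-leukocyte genes were lower than in air, as the members were. Of the 9 tested B cell markers 8, 7, 6 and 7 were lower, with medians of -1.46, -0.90, -1.01 and -0.91. Leaving out 1 array in turn, the counts ran from 6 to 9, 4 to 7, 3 to 8 and 4 to 7. The lowest counts came at 48 h in OuJ without air or 48 h replicate 1 or 2, and in HeJ without air replicate 3 or without 24 h or 48 h replicate 3 respectively. Without a filter 6, 5, 6 and 6 of the 11 measured B cell markers were lower, with medians of -0.94, -0.76, -0.91 and -0.81. Their summed signal over 11 genes was 4449.7 to 5432.7 in OuJ air, 1585.1 to 2364.3 at 24 h and 2317.9 to 2684.1 at 48 h. In HeJ it was 4728.8 to 5633.8, 1996.9 to 3000.6 and 2243.2 to 2696.4. Of the 11 genes, 0 stayed below a signal of 16 in all 24 arrays. Cd79a, a chain of the B cell receptor, fell by 1.78 ± 0.23 at 24 h in OuJ (adjusted p = 4.48e-05) and fell by 1.58 ± 0.23 at 48 h in HeJ (adjusted p = 9.96e-05).

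Of the 14 pan-leukocyte genes 9, 5, 9 and 8 were lower and 0 higher, with medians of -0.65, -0.42, -0.66 and -0.54. Leaving out 1 array in turn, these ran from 5 to 10, 2 to 6, 4 to 9 and 5 to 8. In OuJ the lowest counts came on leaving out 24 h replicate 3 (for 24 h) and either air replicate 1 or 48 h replicate 2 (for 48 h), and in HeJ on leaving out replicate 3 of the ozone group. Ptprc, which encodes CD45, fell, with changes of -0.92 ± 0.16, -0.61 ± 0.16, -0.998 ± 0.16 and -0.96 ± 0.16 (adjusted p of 0.000933, 0.0189, 0.000607 and 0.000439), the OuJ 48 h call being lost without OuJ air replicate 1 or OuJ 48 h replicate 2 (up to 0.0963). Without a filter 7, 5, 8 and 7 of the 14 pan-leukocyte genes were lower. The summed signal of the 14 was 19986 to 22898.3 in OuJ air, 13701.9 to 15644.6 at 24 h and 15374.5 to 16312.4 at 48 h. In HeJ it was 21373.2 to 22379.1, 12576.4 to 15513.4 and 12822.2 to 17108.2. Without the 4 suffix arrays 0 B cell and 1 pan-leukocyte gene were lower at 24 h in HeJ, and the HeJ 24 h calls named above of Thy1, Tnfsf10, Satb1, Nfil3, Zbtb16, Cxcr4 and Ptprc were lost as well (adjusted p up to 0.507). The part of these markers in the changes of the T and NK genes was not tested.

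Of 10 macrophage and dendritic cell markers tested, 1, 0, 1 and 1 were lower and 0, 0, 0 and 2 higher, with medians between -0.07 and 0.11. Their summed signal over 13 genes was 12796.4 to 13757.6 in OuJ air and 13115.2 to 14459.5 at 24 h, and 14133.8 to 15193.1 in HeJ air and 14168 to 17828.8 at 48 h. Marco, a scavenger receptor of alveolar macrophages, rose by 2.00 ± 0.42 at 48 h in HeJ (adjusted p = 0.00326), as did Chil3, a chitinase-like protein of macrophages (0.80 ± 0.17, adjusted p = 0.00395). Csf1r, the receptor that keeps macrophages alive, fell by 0.63 ± 0.11 at 24 h (adjusted p = 0.00136), a call lost without the suffix arrays (adjusted p = 0.224), and fell by 0.56 ± 0.11 at 48 h (adjusted p = 0.00209) in HeJ. Ccr2, a chemokine receptor of monocytes, fell by 1.31 ± 0.38 at 24 h in OuJ (adjusted p = 0.0369), a call lost without any of 4 single arrays, without a filter and in a fit on the groups compared alone (adjusted p up to 0.186). Of the 11 endothelial markers 1, 3, 0 and 6 were lower (1, 0 to 4, 0 to 1 and 4 to 7 leaving out 1 array in turn), and of 12 epithelial markers 0, 0, 1 and 0 were lower and 1, 1, 1 and 3 higher. Of 6 neutrophil markers 2, 2, 0 and 0 were lower and 1 in each comparison was higher. The lower ones were S100a8 and S100a9, calcium-binding proteins abundant in neutrophils. In OuJ S100a8 fell by 2.04 ± 0.32 at 24 h (adjusted p = 0.000322) and fell by 1.14 ± 0.32 at 48 h (adjusted p = 0.0267), the latter lost without any of 3 single arrays (up to 0.167). S100a9 fell by 2.01 ± 0.30 and fell by 1.44 ± 0.30 at those times (adjusted p of 0.000221 and 0.00378). Lcn2, an iron-binding protein of neutrophils that epithelium also makes, rose by 1.13 ± 0.19, 1.10 ± 0.19, 1.41 ± 0.19 and 1.78 ± 0.19 (adjusted p of 0.000765, 0.00101, 9.88e-05 and 4.95e-06).

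**Figure D4:**
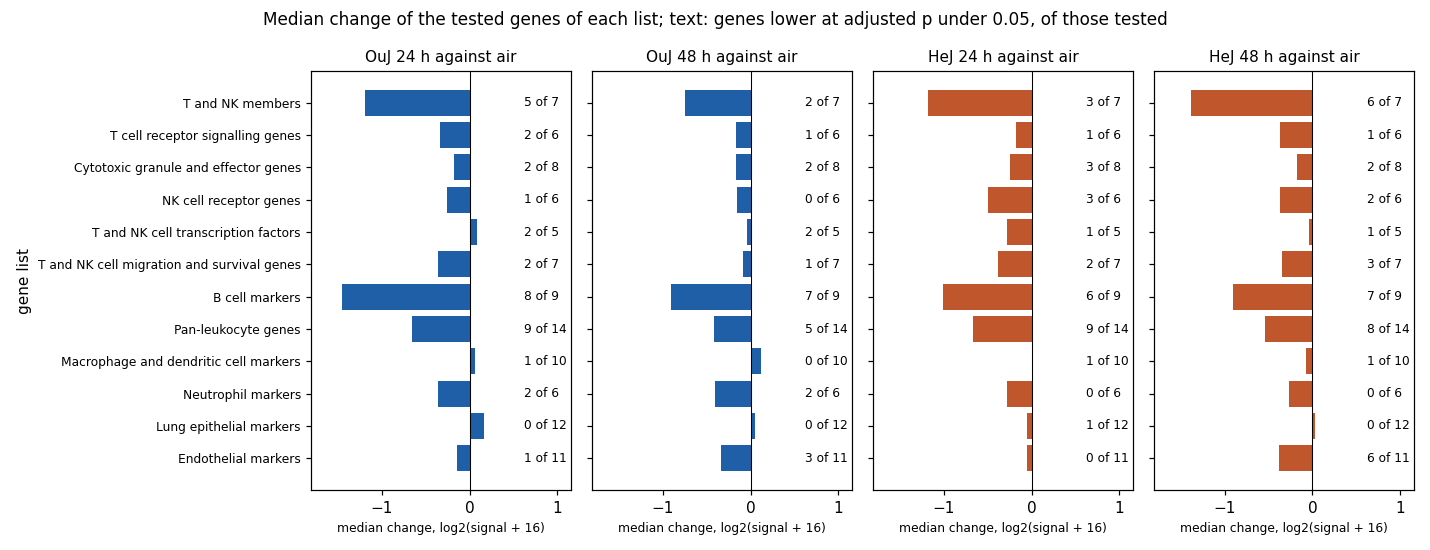
Median change from air (difference of log2(signal + 16)) of the tested genes of each list drawn, at 24 and 48 h in OuJ (blue) and HeJ (orange). The T cell receptor and coreceptor list and the thymocyte list, each with 1 gene tested, are not drawn. The text in each row counts the genes lower at a limma adjusted p under 0.05 of those tested. The bars of the T and NK members and the B cell markers are the longest in all 4 panels, and those of the macrophage, epithelial and transcription factor lists lie between -0.28 and 0.16.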

How the data were processed

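Signal intensity, deposited by the authors for 22690 probe sets of an Affymetrix mouse array, came from GCOS 1.4, per the submitters' processing notes; its settings are not stated. Trimmed by 2% at each tail, every array had a mean between 500.144 and 500.166. The table holds no detection calls. Members and lists were chosen with earlier results of these data known.

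Signals were taken as log2(signal + 16). A probe set with 1 gene symbol was kept if 3 or more of the 24 arrays exceeded 218.3, the overall median signal, and the one with the highest mean stood for each of 8008 genes. A model with 1 mean per group over all 24 arrays was fitted with limma 3.58.1 in R 4.3.3, with an intensity trend in the moderated variance, and 14 comparisons were drawn. Benjamini-Hochberg adjustment was made within each. The script was tested on simulated data.

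Genes named are all members, up to 4 called genes of each of 13 lists with the smallest p (up to 2 if none), the 6 genes most like the member profile, and Tlr4. Alternatives changed the scaling (quantile, median), the pseudocount (1, 64), the filter (none), the probe sets per gene (all, averaged), the trend (none), the arrays fitted (only the groups compared) or the design (a replicate block), or left out 4 suffix arrays or each array in turn. Fits within 1 code series were chosen after seeing the data. The labels call the replicates biological. The number of arrays limits the precision. Upstream sequences are RefSeq's (GRCm38.p6).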

Additional observations from a re-analysis of the deposited data

How the results depend on the processing

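Under the alternatives the 18 calls of members gave 630 values, of which 603 kept direction and call, 27 no longer passed and 0 turned. Members called at 48 h in OuJ went from 2 to 4 with a pseudocount of 64, 5 in a fit on only the groups compared and 4 with the replicate block; at 24 h in HeJ from 3 to 5 with a pseudocount of 64 and 0 without the suffix arrays. HeJ against OuJ over all exposures went from 2 to 0 without the suffix arrays, and 6 h over both strains from 0 to 1 with the replicate block. Leaving out 1 array in turn, the counts ranged from 4 to 6 (OuJ 24 h), 1 to 4 (OuJ 48 h), 2 to 4 (HeJ 24 h), 5 to 6 (HeJ 48 h), 0 to 3 (6 h over both strains) and 1 to 3 (HeJ against OuJ over all exposures), and were 0 in every other comparison. The 1 call left at 48 h in OuJ came without OuJ air replicate 1 or 2 or OuJ 48 h replicate 2, and 4 without HeJ 6 h replicate 3 or HeJ 24 h replicate 2 or 3. The 2 of HeJ against OuJ became 1 without OuJ 24 h replicate 1, HeJ air replicate 3 or HeJ 24 h replicate 1 or 3, and 3 without HeJ 48 h replicate 2. At 24 h in HeJ 2 remained without HeJ air replicate 1 or 3 or 24 h replicate 1 or 3. Uncalled values turned 16 times, 15 of them of Cd3e. Leaving out 1 array in turn, Cd3e ran from -1.12 to 0.14 at 6 h, -0.92 to 0.37 at 24 h and -0.94 to 0.19 at 48 h in OuJ, and from -0.26 to 0.93, -0.72 to 0.30 and -0.84 to 0.19 in HeJ. Without the suffix arrays it was 0.85 at 24 h and 0.19 at 48 h in HeJ, and Cd3g at 24 h in HeJ was 0.014. The causes were not tested. Of the genes named from lists, 122 calls gave 4270 values, of which 325 no longer passed and 0 turned. Where all kept probe sets were tested, the value is that of 1 probe set of the gene, not always the one used above. Arrays with the same replicate number deviated together with a median r of 0.027 (-0.102 to 0.201, 84 pairs), so the numbers were not taken as pairs. Fits within 1 code series moved 0 of 7 counts, all of which were 0 in the main fit. No comparison with a called member lies within 1 code series, so these fits do not bear on the calls.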
